A study of Mus musculus with 10 samples.

Results

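Chromatin accessibility was examined at 9 genes of the oxidative stress response in mouse prostate cancer cells: Nfe2l2, Keap1, Nqo1, Hmox1, Gclc, Gclm, Srxn1, Txnrd1 and Slc7a11. The genes were taken by name from the NRF2 pathway. Every interval of the 5 deposited peak lists that overlapped a gene of the GENCODE M21 annotation (build mm10), extended by 10 kb on each side, was counted. There were 488 such intervals. Those with a q-value up to 0.01 were merged where they overlapped, within and between lists, into 123 regions, of 204075 merged regions in the whole series. They were spread unevenly, with 44 at Slc7a11, 19 at Txnrd1, 11 each at Nfe2l2 and Keap1, 10 each at Nqo1 and Gclc, 7 at Gclm, 6 at Srxn1 and 5 at Hmox1.

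The cells were Myc-CaP, an established line from a prostate carcinoma of a male FVB/NJ mouse carrying a Myc transgene, so that every group was the same cancer cell line in culture. ATAC-seq, in which a transposase cuts and tags open DNA, was run after 48 h on 10 libraries, 2 for each of 5 groups. Ctrl cells were left untreated. Cispl and Oxali cells had the platinum drugs cisplatin or oxaliplatin, each at 2 µM. IFNγ cells had interferon-γ, labelled 1000 pg with no volume, and Oxali + IFNγ cells had both agents at these doses. The study asked how low doses of platinum drugs, alone or with IFNγ, change gene expression and chromatin in tumour cells. The authors pooled the 2 libraries of a group before calling peaks, which left 1 list per group and no spread between replicates. Therefore no test between conditions could be made from these lists. The authors' own test used read counts per replicate, which the lists do not hold.

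NRF2, the product of Nfe2l2, is a transcription factor that is held at a low level by KEAP1, an adaptor that carries it to a ubiquitin ligase. Oxidants and electrophiles modify cysteines of KEAP1, NRF2 then accumulates, pairs with a small MAF protein and binds antioxidant response elements near genes for detoxification, glutathione synthesis and thioredoxin recycling. The core of such an element reads TGACNNNGC. The form TGACTCAGC also holds the AP-1 sequence TGACTCA, to which JUN and FOS bind.

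For each region, the level was the highest pileup of cut-site fragments in the list divided by the genome background of that list, which scales with its number of reads. The genome background was 12.1 in Ctrl and ran from 79.3% of that in the IFNγ list to 113% in the Cispl list. The term strong stands for a q-value up to 0.01, and a region was called in a list when any deposited interval touched it by 1 bp. Gained with a treatment means strong in the treated list and not called in Ctrl, and lost means the mirror case. Intervals of pileups and ratios are exact 95% Poisson intervals, which cover counting error only, and in bulk cells a change in the share of cells with open DNA and a change in every cell cannot be told apart. The start sites of the epithelial genes Krt8 and Hoxb13 were called in all 5 lists. The start site of Krt18 was called in 2 lists at pileups of 43 and 46, that of Epcam in 1 list at 24, and none was listed for Cdh1, so that these epithelial markers had no start region in most lists. Of the markers of other cells, Cd3e had none listed, and Col1a1 and Vim had one in every list. Ptprc had a weak one only in Oxali, Cispl and Oxali + IFNγ, at pileups of 33, 34 and 36. Pecam1 had a weak one in Ctrl, Cispl and Oxali + IFNγ, at pileups of 29, 41 and 35.

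Sequence around the summit is shown for 7 of the regions away from start sites that are described below, chosen after their values were seen, because each holds a match to the NRF2 or the AP-1 sequence. Some regions with larger ratios to Ctrl hold neither and are not shown. Each stretch is 151 bases of GRCm38.p6 (the sequence of mm10) from RefSeq, on the strand of its gene, with matches to TGACNNNGC or TGACTCA on either strand in capitals. A match on the other strand reads GCNNNGTCA or TGAGTCA.
Hmox1, 9.71 kb upstream, chr8:75083917-75084067, plus strand: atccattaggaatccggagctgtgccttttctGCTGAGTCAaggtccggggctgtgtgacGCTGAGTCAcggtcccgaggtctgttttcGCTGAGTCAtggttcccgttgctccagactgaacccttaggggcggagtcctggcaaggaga
Hmox1, 3.99 kb upstream, chr8:75089645-75089795, plus strand: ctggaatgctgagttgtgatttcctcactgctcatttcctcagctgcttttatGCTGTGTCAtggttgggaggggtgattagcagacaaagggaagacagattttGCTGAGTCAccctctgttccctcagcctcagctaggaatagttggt
Gclc, 3.73 kb upstream, chr9:77750733-77750883, plus strand: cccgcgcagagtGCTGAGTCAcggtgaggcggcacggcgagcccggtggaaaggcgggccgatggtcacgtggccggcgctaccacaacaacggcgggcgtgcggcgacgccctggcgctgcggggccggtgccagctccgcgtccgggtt
Slc7a11, intron, 41.1 kb from the start, chr3:50402561-50402711, minus strand: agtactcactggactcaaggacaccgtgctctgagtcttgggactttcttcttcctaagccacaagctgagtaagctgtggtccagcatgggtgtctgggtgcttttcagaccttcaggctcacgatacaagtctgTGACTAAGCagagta
Srxn1, 3.51 kb upstream, chr2:152102109-152102259, plus strand: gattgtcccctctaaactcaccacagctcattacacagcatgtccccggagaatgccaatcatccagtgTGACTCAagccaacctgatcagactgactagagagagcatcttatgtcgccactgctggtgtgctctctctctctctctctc
Txnrd1, intron, 17.6 kb from the start, chr10:82851881-82852031, plus strand: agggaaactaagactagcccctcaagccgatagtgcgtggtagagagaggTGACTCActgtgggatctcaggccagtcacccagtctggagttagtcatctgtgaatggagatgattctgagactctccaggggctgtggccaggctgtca
Nfe2l2, intron, 18.9 kb from the start, chr2:75685574-75685724, minus strand: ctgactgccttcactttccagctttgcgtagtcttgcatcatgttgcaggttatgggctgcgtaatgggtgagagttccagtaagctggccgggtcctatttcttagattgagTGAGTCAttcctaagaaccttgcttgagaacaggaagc

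The Hmox1 region 9.71 kb upstream held 3 copies of TGACTCAGC, and the region 3.99 kb upstream held 1 copy and 1 TGACACAGC. The Gclc region 3.73 kb upstream held 1 TGACTCAGC. The Slc7a11 intron region held TGACTAAGC, which lacks the AP-1 sequence, with its centre 65 bp from the summit. The Srxn1, Txnrd1 and Nfe2l2 regions shown held TGACTCA without the rest of the NRF2 sequence. Within 100 bp of a summit, 18 of the 123 regions (14.6%) held TGACNNNGC, beside 11.9% of all 204075 regions. The 9-base TGACTCAGC was in 3 of them (2.44%), beside 2.01% of all regions, and TGACTCA in 18 (14.6%), beside 19.2%. Because TGACTCAGC contains TGACTCA, a region could count for both. Of the RefSeq promoter windows, 7 of the 9 genes had an entry, and the 250 bases before the start held TGACNNNGC at Nfe2l2, at Gclm and at 1 of 3 starts of Txnrd1, beside 10.2% of all 32851 promoter windows.

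The platinum lists were longer over the whole genome, with 158621 intervals for Oxali, 174048 for Cispl and 174709 for Oxali + IFNγ beside 122298 for Ctrl and 118949 for IFNγ, and more regions at these genes were called in them. Strong regions numbered 72 in Ctrl, 95 after Oxali, 97 after Cispl, 75 after IFNγ and 104 after Oxali + IFNγ. Against Ctrl, 26 of the 123 regions (21.1%) were gained with Oxali, 27 (22.0%) after Cispl, 9 (7.32%) after IFNγ and 36 (29.3%) after Oxali + IFNγ. Over all regions of the series the same percentages were 22.1, 28.9, 5.94 and 30.3. Lost regions numbered 3 (2.44%), 2 (1.63%), 5 (4.07%) and 4 (3.25%), beside 4.75%, 3.21%, 8.08% and 4.06% of all regions. The gains and losses were thus close to or below the background. With the 100000 best intervals of each list, so that lists were equally long, 10 regions were gained and 9 lost after Oxali, 8 and 8 after Cispl, 7 and 4 after IFNγ, and 10 and 13 after Oxali + IFNγ. In these counts the excess of gains after platinum was gone or turned. Equal lengths pull gains and losses toward balance over the whole genome. The shares of all regions under this cut were not counted, so that it gives no result about these genes. All these comparisons share the Ctrl list, and the Cispl list ends at a stricter p-value limit, so that weak regions are missing from it.

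**Figure D1:**
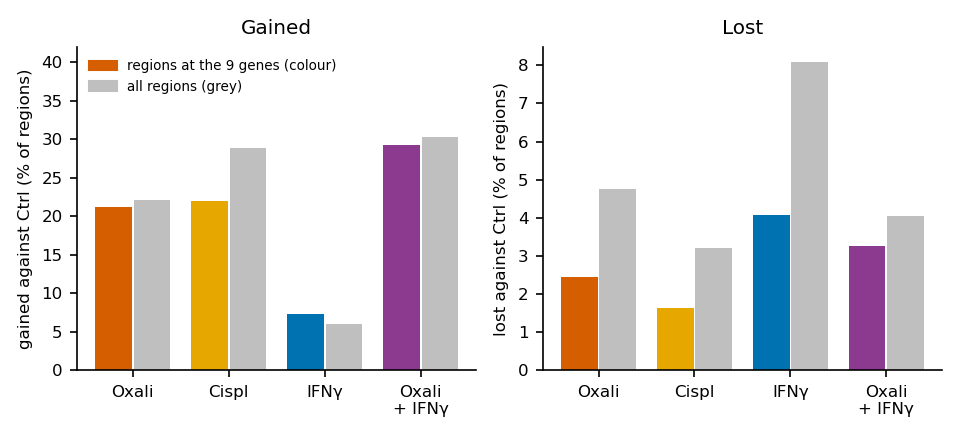
Percentage of regions gained (left) and lost (right) against Ctrl for each treated list, with the 123 regions at the 9 genes in colour and all 204075 regions in grey. With Oxali + IFNγ, 29.3% of the regions at the 9 genes were gained beside 30.3% of all regions.

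The window of Slc7a11, which holds 44 of the 123 regions, took most of the gains in both lists with oxaliplatin, 18 of 26 after Oxali and 23 of 36 after Oxali + IFNγ. It took 10 of 27 after Cispl and 2 of 9 after IFNγ, which is near or below its share of the regions. At the other 8 genes, 8 of 79 regions (10.1%) were gained with Oxali, 17 (21.5%) after Cispl, 7 (8.86%) after IFNγ and 13 (16.5%) after Oxali + IFNγ. The shares of all regions of the series were 22.1%, 28.9%, 5.94% and 30.3%. Hmox1 had no gained and no lost region in any list. At least 1 region was gained at 6 of the 9 genes with Oxali, 8 after Cispl, 6 after IFNγ and 6 after Oxali + IFNγ, beside 59.0%, 68.4%, 30.6% and 66.8% of all 21938 protein-coding genes. The windows of the 9 genes held a median of 10 regions, and those of all coding genes a median of 6.

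Levels were compared at the 62 regions that were called in every list. With Oxali, 6 were at least 1.5-fold higher and 6 at least 1.5-fold lower than in Ctrl, beside 27.7% and 8.39% of the 85384 such regions of the series. With Cispl, 5 were higher and 14 lower, beside 23.1% and 13.9%. With IFNγ, 4 were higher and 11 lower, beside 3.7% and 19.4%. With Oxali + IFNγ, 5 were higher and 16 lower, beside 29.3% and 16.1%. These counts rest on the genome background as the scale. Scaled by start-site regions, the higher regions of the 62 numbered 17 after Oxali, 23 after Cispl, 12 after IFNγ and 25 after Oxali + IFNγ. The lower ones then numbered 0 in each list. That scaling multiplies all regions of a list, in the whole series, by 1 factor. The shares of the series under it were not counted, so that the turn is not a result about these genes. The median log2 ratio to Ctrl was -0.13, -0.15, -0.25 and -0.15 in the same order, while that of all regions called in every list was 0.15, 0.07, -0.25 and 0.14. Relative to the genome background, the number of higher regions was below the share of the series in each list with platinum. Outside start sites, the median of 44 regions was -0.03, -0.09, -0.21 and -0.12, beside 0.25, 0.17, -0.20 and 0.26 for such regions of the series. All 4 medians of the 62 were positive when levels were scaled by start-site regions, and that after IFNγ also when scaled by regions strong in every list.

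**Figure D2:**
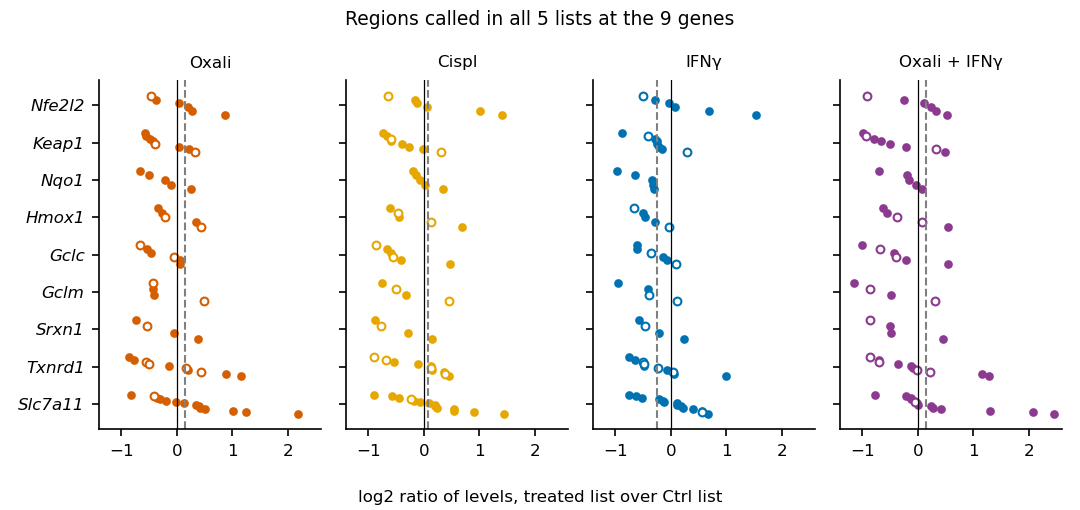
Log2 ratio of levels, treated list over Ctrl, for the 62 regions called in all 5 lists, 1 point per region in a row for each gene; open points lie within 1 kb of a start of the gene, weaker regions beside the main one included, the solid line is 0 and the dashed line the median of all 85384 regions. Most points lie near or left of the dashed line, and the largest ratios with Oxali and Oxali + IFNγ are at Slc7a11.

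The main start-site regions were lower after treatment with few exceptions. A region within 1 kb of an annotated start was called in every list at 8 of the 9 genes, and the one with the highest level was taken for each. Relative to the genome background, all 8 were lower than in Ctrl after each treatment with platinum, and 7 of 8 after IFNγ. By at least 1.5-fold, 0 were lower with Oxali, 4 after Cispl, 1 after IFNγ and 5 after Oxali + IFNγ, beside 22.8%, 41.5%, 35.1% and 51.6% of the 16486 start-site regions of the series, and 0 were higher, beside 10.6%, 8.96%, 0.873% and 11.2%. The median log2 ratio of the 8 was -0.42, -0.57, -0.43 and -0.87, and that of all start-site regions was -0.32, -0.48, -0.47 and -0.62. These sets differ, since the 8 are the highest region of each gene and the 16486 include weaker regions near any coding start. The median of all member regions near a coding start and called in every list was -0.40, -0.51, -0.35 and -0.39. When levels were scaled by the median start-site region instead, 6 of 8 were below Ctrl with Oxali, 6 after Cispl, 3 after IFNγ and 5 after Oxali + IFNγ.

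**Figure D3:**
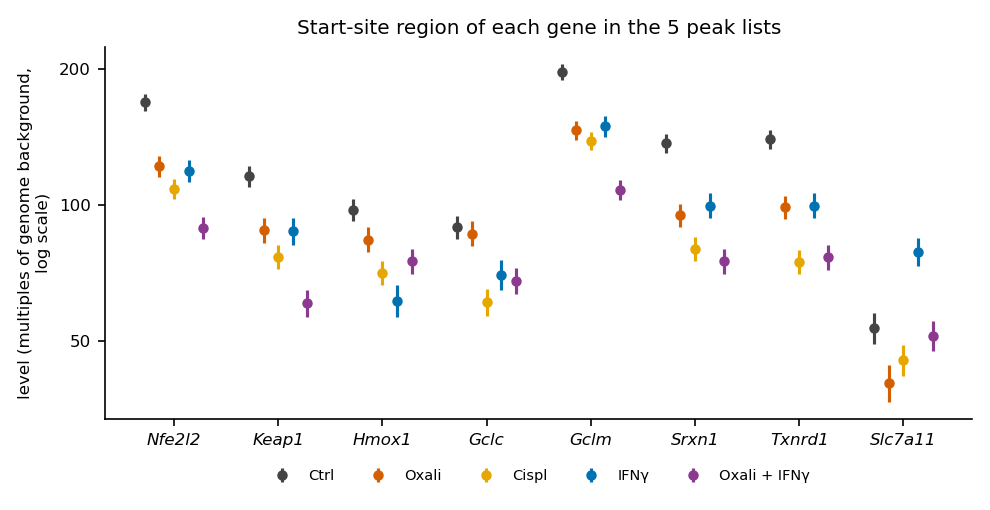
Level of the start-site region of 8 genes in each of the 5 peak lists, in multiples of the genome background on a log axis; points are levels and bars exact 95% Poisson intervals of the pileup. Ctrl is the highest of the 5 lists at 7 genes, and IFNγ at Slc7a11.

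Among the regulators, the start-site region of Nfe2l2 (chr2:75703383-75705469), the gene for NRF2, had pileups of 2048 in Ctrl, 1374 after Oxali, 1491 after Cispl, 1144 after IFNγ and 1148 after Oxali + IFNγ. The levels were 169, 122, 108, 119 and 89.0 times the genome background, so that Ctrl was highest and Oxali + IFNγ lowest. The ratio to Ctrl was 0.723 after Oxali (0.674 to 0.774) and 0.527 after Oxali + IFNγ (0.490 to 0.567). A different order was seen inside the gene. An intron region 18.9 kb from the start (chr2:75685482-75686090) had pileups of 32, 34, 73, 74 and 40 in the order used above. Its levels were 2.64, 3.02, 5.30, 7.69 and 3.10, high in Cispl and IFNγ and close together in the other 3 lists. The ratio of 2.92 after IFNγ (1.90 to 4.57) was among the 3 largest of all member regions by the rule on named sites. With both agents the ratio to IFNγ alone was 0.403 (0.267 to 0.600). The intron region 21.2 kb from the start (chr2:75682941-75683906), picked for its values outside that rule, had pileups of 36, 61, 109, 28 and 55 in the same order. It was highest in Cispl, with a ratio of 2.67 to Ctrl (1.82 to 4.01), and its ratio with IFNγ was 0.981 (0.577 to 1.65).

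At Keap1, the gene for the adaptor that turns NRF2 over, the start-site region (chr9:21237929-21239778) had pileups of 1405 in Ctrl, 991 after Oxali, 1058 after Cispl, 842 after IFNγ and 781 after Oxali + IFNγ. Levels were 116, 87.9, 76.9, 87.5 and 60.5, again highest in Ctrl and lowest with both agents. The ratio with Oxali + IFNγ was 0.523 (0.478 to 0.571). The region 2.18 kb upstream (chr9:21241436-21241651), 1 of the 3 lowest ratios of all members, had pileups of 336, 209, 289, 144 and 181, and its ratio with Oxali + IFNγ was 0.507 (0.421 to 0.609). Beyond the 3′ end, a region of 195 bp (chr9:21219918-21220112) was gained in all 3 lists with platinum at pileups of 123, 136 and 118. It lay 202 bp from a Ctrl interval, on a local background of 53.7 to 62.7 that was far above that of the genome, so that a Ctrl pileup below the calling limit there need not have been low. The 3 regions farthest upstream lay within 1 kb of a start of the neighbouring gene S1pr5.

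Nqo1 encodes a quinone reductase and is a standard readout of NRF2. No region was listed within 1 kb of its start in any of the 5 lists, and the nearest inside the gene (chr8:107399918-107401132, an intron 2.68 kb from the start) had pileups of 446 in Ctrl, 493 after Oxali, 481 after Cispl, 288 after IFNγ and 500 after Oxali + IFNγ. At the start itself, an interval never called and an interval filtered out of the lists cannot be told apart. The levels of the intron region were 36.7, 43.7, 34.9, 29.9 and 38.7. Its ratios to Ctrl ran from 0.815 after IFNγ to 1.19 after Oxali, and in every treated list but Oxali the direction depended on the scaling. Among 10 regions, 3 were gained with Cispl, 1 after IFNγ, 1 after Oxali + IFNγ and 0 after Oxali. The shares of all regions of the series were 28.9%, 5.94%, 30.3% and 22.1% in this order.

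Hmox1, which breaks down heme, had 5 regions that were called in every list. The start-site region (chr8:75093407-75094287) had pileups of 1184 in Ctrl, 944 after Oxali, 973 after Cispl, 591 after IFNγ and 969 after Oxali + IFNγ, and levels of 97.5, 83.7, 70.7, 61.4 and 75.1. The lowest was IFNγ, with a ratio of 0.630 (0.570 to 0.696). Both upstream regions whose sequences are printed above were chosen after their values were seen. The region 9.71 kb upstream (chr8:75083365-75084453), with 3 copies of TGACTCAGC, had pileups of 1045, 769, 866, 597 and 716 and levels of 86.1, 68.2, 62.9, 62.0 and 55.5. It was highest in Ctrl, and the ratio with Oxali + IFNγ was 0.644 (0.585 to 0.709). The region 3.99 kb upstream (chr8:75089422-75089838) had pileups of 124, 147, 226, 81 and 191 and levels of 10.2, 13.0, 16.4, 8.42 and 14.8. Here the 3 lists with platinum were highest, with ratios to Ctrl of 1.28 after Oxali (0.998 to 1.63), 1.61 after Cispl (1.29 to 2.02) and 1.45 after Oxali + IFNγ (1.15 to 1.83). The interval after Oxali included 1. Scaled by start-site regions, the region 9.71 kb upstream was at the level of Ctrl, with ratios of 0.992 after Oxali, 1.03 after Cispl and 0.994 after Oxali + IFNγ. The region 15838 bp from the start lay at the start of Mcm5, a neighbour.

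Gclc and Gclm encode the catalytic and the modifier subunit of glutamate-cysteine ligase, the first step of glutathione synthesis. The Gclc start-site region (chr9:77754346-77755236) had pileups of 1082 in Ctrl, 974 after Oxali, 838 after Cispl, 673 after IFNγ and 877 after Oxali + IFNγ. Levels were 89.1, 86.4, 60.9, 69.9 and 68.0, with Ctrl and Oxali near each other, and the ratio with Oxali was 0.969 (0.888 to 1.06). The region 3.73 kb upstream (chr9:77750261-77751344), which holds TGACTCAGC, had pileups of 1060, 710, 762, 547 and 560. Its ratios were 0.721 after Oxali (0.655 to 0.794), 0.634 after Cispl (0.577 to 0.697), 0.651 after IFNγ (0.586 to 0.723) and 0.497 after Oxali + IFNγ (0.448 to 0.551), the last being 1 of the 3 lowest of all members. It was below Ctrl under each of the 3 scalings.

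The Gclm start-site region (chr3:122245216-122246412) was the highest of the 8, at pileups of 2392 in Ctrl, 1647 after Oxali, 1904 after Cispl, 1436 after IFNγ and 1392 after Oxali + IFNγ. The levels were 197, 146, 138, 149 and 108, and the ratio with Oxali + IFNγ was 0.547 (0.512 to 0.585). Of the 3 other regions within 1 kb of an annotated start, that 531 bp upstream (chr3:122244891-122245162) had pileups of 349, 458, 541, 298 and 458, and that 1030 bp into the gene (chr3:122246468-122246706) was strong with Oxali at 340 and with Oxali + IFNγ at 395, on a local background of 141 to 142 and 77 bp from a Ctrl interval. The third, 1.72 kb into the gene (chr3:122247070-122247493), was called in every list but Ctrl, with pileups of 252 after Oxali, 257 after Cispl, 168 after IFNγ and 339 after Oxali + IFNγ. Its local background of 114 to 157 equalled that of the start-site region, and the nearest Ctrl interval was 679 bp away, so that the Ctrl level of both is not known. The lowest ratio of all members, 0.452 after Oxali + IFNγ (0.412 to 0.496), was at the 3′ side of the Gclm window (chr3:122273981-122274991), with pileups of 1435, 1007, 965, 590 and 690. That region lay at the start of the neighbour Dnttip2.

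Slc7a11 encodes the cystine importer of the xCT exchanger, which supplies cysteine for glutathione. Its start-site region (chr3:50442383-50444398) had the lowest level of the 8 in every list but IFNγ, with pileups of 648 in Ctrl, 454 after Oxali, 623 after Cispl, 756 after IFNγ and 663 after Oxali + IFNγ. Levels were 53.4, 40.3, 45.3, 78.6 and 51.4, and IFNγ was the highest list. The ratio was 1.47 after IFNγ (1.32 to 1.64), 0.755 after Oxali (0.668 to 0.852) and 0.962 after Oxali + IFNγ (0.862 to 1.07). Scaled by start-site regions, it was 0.944 after Oxali, 1.19 after Cispl, 2.04 after IFNγ and 1.49 after Oxali + IFNγ, so that the direction turned after Cispl and Oxali + IFNγ. No other start-site region of the 8 was above Ctrl with IFNγ relative to the genome background.

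The largest ratio of all 62 regions was in an intron of Slc7a11, 41.1 kb from the start (chr3:50401929-50403162). Its pileups were 71 in Ctrl, 300 after Oxali, 220 after Cispl, 61 after IFNγ and 413 after Oxali + IFNγ. Levels were 5.85, 26.6, 16.0, 6.34 and 32.0, so that the 3 lists with platinum were well above Ctrl and IFNγ. The ratio to Ctrl was 4.55 after Oxali (3.50 to 5.98), 2.73 after Cispl (2.08 to 3.62), 1.08 after IFNγ (0.757 to 1.55) and 5.47 after Oxali + IFNγ (4.24 to 7.14). Scaled by regions strong in every list or by start-site regions, the ratio with Oxali was 4.13 or 5.69. The region holds TGACTAAGC, as printed above. A nearby intron region 46.6 kb from the start (chr3:50396798-50397259), picked for its values, had pileups of 60, 132, 128, 70 and 158 and a ratio of 2.37 after Oxali (1.73 to 3.27).

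The Slc7a11 window was wide because of a single transcript. The GENCODE gene spans 551089 bp, and the next longest transcript 78674 bp. Of the 44 regions, 33 lay outside the RefSeq extent of the gene widened by 10 kb, and these took 16 of the 18 gains with Oxali, 8 of 10 after Cispl, 1 of 2 after IFNγ and 19 of 23 after Oxali + IFNγ. With the RefSeq extent, which reaches farther upstream and so takes in regions that are not among the 123, 11 regions were gained with Oxali and 18 after Oxali + IFNγ over all 9 genes. Inside the long transcript, a region 357 kb from the start (chr3:50086433-50087211) had pileups of 37, 69, 61, 27 and 166 in the order used above. Only with both agents was it far above the rest, at a ratio of 4.22 to Ctrl (2.94 to 6.20) and an interval of 1.58 to 2.82 for its ratio to Oxali alone. No match to TGACNNNGC or TGACTCA lay within 100 bp of its summits.

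**Figure D4:**
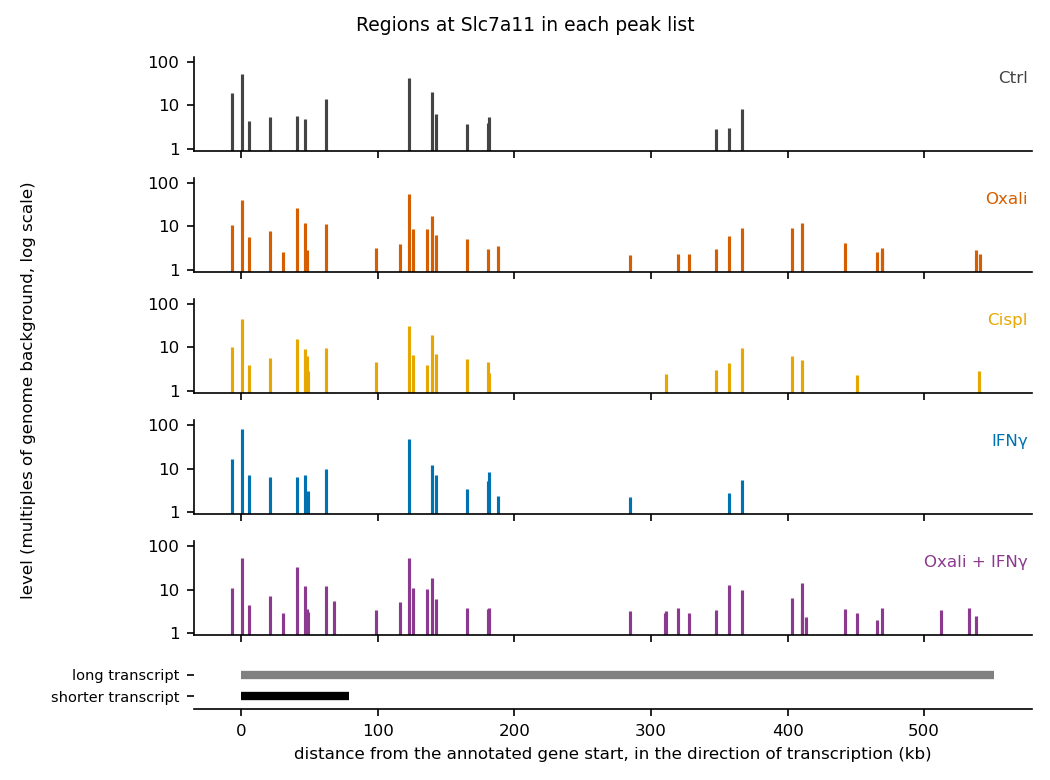
Level of each called region at Slc7a11 by its distance in kb from the annotated gene start, 1 panel per list (log axis, multiples of the genome background), above bars for the long transcript and the next longest. Beyond the shorter transcript, Ctrl and IFNγ have fewer bars than the 3 lists with platinum, and the bar at 41.1 kb is higher in those 3.

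Srxn1 encodes sulfiredoxin, which restores overoxidised peroxiredoxins. The start-site region (chr2:152105041-152106142) had pileups of 1663 in Ctrl, 1068 after Oxali, 1099 after Cispl, 959 after IFNγ and 969 after Oxali + IFNγ, and levels of 137, 94.7, 79.9, 99.7 and 75.1. The region 3.51 kb upstream (chr2:152101714-152102299) had another pattern, since it was called at pileups of 209 after Oxali, 173 after Cispl and 231 after Oxali + IFNγ and had no interval in Ctrl or IFNγ. Its levels in the first 3 were 18.5, 12.6 and 17.9. Its local background of 75.1 to 76.1 was near that of the start-site region, which in Ctrl was 92.9, and the nearest Ctrl interval was 2781 bp away. The Ctrl level there is therefore not known, and no ratio was formed. A second region, beyond the 3′ end (chr2:152119337-152119920), was gained in the same 3 lists at pileups of 33, 57 and 45, over the genome background alone.

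Txnrd1 encodes the cytosolic thioredoxin reductase. The start-site region, at an internal transcript start (chr10:82858240-82859589), had pileups of 1697 in Ctrl, 1113 after Oxali, 1028 after Cispl, 959 after IFNγ and 989 after Oxali + IFNγ, and levels of 140, 98.7, 74.7, 99.7 and 76.6. The ratio with Cispl was 0.534 (0.494 to 0.578), the lowest of the 8 start-site regions with that drug. Of the regions away from it, an upstream and an intron region were chosen after their values were seen. The region 5.48 kb upstream of the first start (chr10:82828156-82828781) had pileups of 70, 145, 102, 58 and 180 and levels of 5.77, 12.9, 7.41, 6.03 and 13.9, and was highest in both lists with oxaliplatin. Its ratio was 2.23 after Oxali (1.67 to 3.01), 1.29 after Cispl (0.939 to 1.77) and 2.42 after Oxali + IFNγ (1.83 to 3.24). Scaled by start-site regions, it was 2.79 after Oxali, 1.80 after Cispl, 1.45 after IFNγ and 3.73 after Oxali + IFNγ. The intron region 17.6 kb from the start (chr10:82850798-82852256) had pileups of 155, 266, 241, 244 and 367 and levels of 12.8, 23.6, 17.5, 25.4 and 28.4, above Ctrl in every treated list. Its ratio was 1.85 after Oxali (1.51 to 2.27), 1.37 after Cispl (1.12 to 1.69), 1.99 after IFNγ (1.62 to 2.44) and 2.23 after Oxali + IFNγ (1.84 to 2.70). An exonic region 45.2 kb from the start (chr10:82878799-82879412) and an intron region at 54.2 kb (chr10:82888049-82888261) were gained in all 3 lists with platinum, with pileups of 64, 66 and 53 and of 30, 58 and 40. The exonic region held TGACTTAGC and TGACTCTGC, both matches to TGACNNNGC, and its sequence is not shown.

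**Figure D5:**
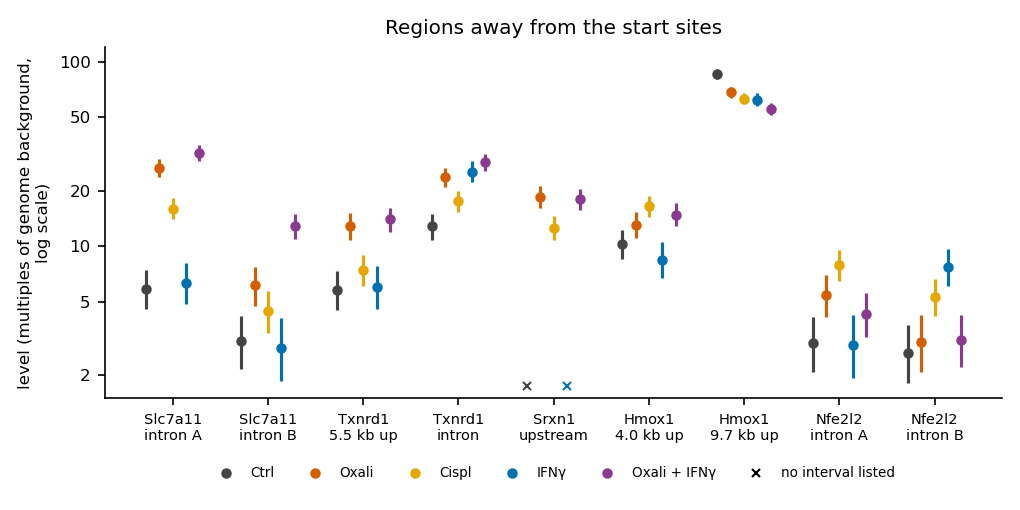
Level of 9 regions away from the start sites in each of the 5 lists, in multiples of the genome background on a log axis; bars are exact 95% Poisson intervals of the pileup and crosses mark lists with no interval. Slc7a11 intron A is the region 41.1 kb and intron B the region 357 kb from the start, and Nfe2l2 intron A and B lie 21.2 and 18.9 kb from the start; in the lists with platinum, 3 of 3 levels exceed Ctrl at Slc7a11 intron A.

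In all, 12 of the 123 regions (9.76%) were gained in Oxali, Cispl and Oxali + IFNγ alike, beside 13.2% of all regions of the series, and 11 of these 12 were not called in IFNγ either. They comprised 6 at Slc7a11, 2 at Srxn1, 2 at Txnrd1 and 1 each at Keap1 and Gclm. The 6 at Slc7a11 had pileups in Oxali, Cispl and Oxali + IFNγ of 135, 72 and 183 (410 kb from the start, chr3:50032968-50033782), 102, 90 and 81 (403 kb, chr3:50040319-50040961) and 96, 56 and 131 (136 kb, chr3:50307249-50307850). The rest had 99, 94 and 141 (125 kb, chr3:50318022-50318399), 37, 64 and 45 (98.9 kb, chr3:50344469-50344913) and 32, 88 and 47 (47.9 kb, chr3:50395458-50395905). Of these 6, only the last lies inside the shorter gene. The region at 125 kb lay on a local background of 37.9 to 49.9 and 1632 bp from a Ctrl interval, so that its Ctrl level is not known.

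Oxaliplatin and cisplatin were given at the same dose and time, and 1 pair of lists could be compared. Both are square planar platinum complexes, oxaliplatin with a diaminocyclohexane carrier and an oxalate leaving group where cisplatin has ammine and chloride ligands. Of the 123 regions, 15 (12.2%) were strong in Cispl and not called in Oxali, beside 16.0% of all regions, and 14 (11.4%) were the reverse, beside 7.93%. Of those 14, 12 lay in the Slc7a11 window, 11 of them outside the RefSeq extent, and the median pileup of the 14 in Oxali was 31.5, near the lowest of 26 that the stricter Cispl list holds. Of the 62 regions called in every list, 3 were at least 1.5-fold higher and 3 at least 1.5-fold lower in Cispl, beside 5.22% and 12.0%. The median log2 ratio of Cispl to Oxali was -0.13, the same as that of all regions called in every list. The level in Cispl over that in Oxali was 0.601 at the Slc7a11 region at 41.1 kb (0.502 to 0.717), 0.576 at the Txnrd1 region 5.48 kb upstream (0.443 to 0.747), 0.678 at the Srxn1 region 3.51 kb upstream (0.551 to 0.833) and 0.742 at the Txnrd1 intron region (0.621 to 0.887). It was 1.26 at the Hmox1 region 3.99 kb upstream (1.02 to 1.56), 1.46 at the Nfe2l2 region at 21.2 kb (1.06 to 2.04) and 1.76 at that at 18.9 kb (1.16 to 2.73). For the Slc7a11 start-site region the interval of the ratio, 0.994 to 1.27, included 1. Among the regions gained in all lists with platinum, the ratio ran from 0.437 at the Slc7a11 region at 410 kb (0.323 to 0.586) to 2.25 at that at 47.9 kb (1.49 to 3.49). These intervals hold no variation between cultures, and whether the drugs differ beyond it was not tested.

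Adding IFNγ to oxaliplatin gained and lost regions at these genes at shares close to those of the series. Against Oxali alone, 15 regions (12.2%) were gained with Oxali + IFNγ and 6 (4.88%) lost, beside 12.9% and 4.53% of all regions. Of the 62 called in every list, 1 was at least 1.5-fold higher and 1 lower, beside 2.33% and 5.38%. The higher one was the Slc7a11 region 357 kb from the start, and the lower one was the Gclm-side start of Dnttip2, with a ratio of 0.598 (0.542 to 0.660). The Slc7a11 region at 41.1 kb had a ratio of 1.20 (1.03 to 1.40). At the main start-site regions, the ratio of Oxali + IFNγ to Oxali was 0.688 at Keap1, 0.730 at Nfe2l2, 0.738 at Gclm, 0.776 at Txnrd1, 0.786 at Gclc, 0.792 at Srxn1, 0.897 at Hmox1 and 1.28 at Slc7a11 (1.13 to 1.44), beside a median of 0.808 for all start-site regions of the series. It was below 1 at 7 of the 8 genes, as was the median of the series, which includes weaker start-site regions.

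The other genes of the pathway were taken as a list of 42, and 40 of them had a start-site region in every list. Relative to the genome background, 0 of these were at least 1.5-fold higher with any treatment, and those lower numbered 18 after Oxali, 32 after Cispl, 16 after IFNγ and 37 after Oxali + IFNγ, beside 22.8%, 41.5%, 35.1% and 51.6% of all start-site regions. Scaled by start-site regions, those lower numbered 3, 2, 3 and 10 of the 40, with 0 higher. The shares of all start-site regions under that scaling were not counted. The median log2 ratios of -0.53, -0.78, -0.57 and -1.01 lay below those of all start-site regions given above. The 40 are 1 region per gene, while the series set includes weaker regions beside a main one, here and in the shares by role. Whether the gap comes from this difference was not tested. By role and relative to the genome background, those lower after Oxali and after Oxali + IFNγ were 6 and 8 of 8 regulators, 4 and 6 of 6 glutathione genes, 2 and 6 of 6 thioredoxin genes, 1 and 6 of 9 detoxification genes, 2 and 6 of 6 genes for NADPH supply, 1 and 2 of 2 iron genes and 2 and 3 of 3 for superoxide and peroxide, beside 22.8% and 51.6% of all start-site regions. After Cispl these were 8, 6, 3, 5, 5, 2 and 3, and after IFNγ 5, 2, 1, 3, 2, 2 and 1 in the same order, beside 41.5% and 35.1%. The lowest ratios with Oxali were at Sod1, the cytosolic superoxide dismutase (0.520), at Mafk, a small MAF partner of NRF2 (0.522), and at Rbx1, a subunit of the ligase that KEAP1 serves (0.530). At Sod1 the pileups were 1779 in Ctrl, 859 after Oxali, 956 after Cispl, 756 after IFNγ and 683 after Oxali + IFNγ. The highest ratios were at Osgin1, an oxidative stress-induced growth inhibitor (1.01), at Gsta4, a glutathione transferase (0.949), and at Gss, glutathione synthetase (0.902). At Osgin1 the pileups were 696, 654, 696, 449 and 694 and the levels 57.3, 58.0, 50.6, 46.7 and 53.8, highest in Oxali and Ctrl and lowest in IFNγ.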

How the data were processed

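ATAC-seq reads of 10 Myc-CaP libraries had been trimmed with cutadapt, aligned to mm10 with Bowtie2 2.2.8, filtered with SAMtools and stripped of duplicates and mitochondrial reads by the authors. They pooled the 2 libraries of each group, called peaks with MACS2 2.1.0 at p of 0.01 with reads shifted to the cut site, and removed blacklisted peaks. In the deposited files, fold is the ratio of pileup plus 1 to local background plus 1. The values of −log10 p-value and −log10 q-value deposited beside it come from the Poisson tail of those numbers. Pileup and background were solved from both for 100% of summits (checked on simulated data). The lowest background of a list (12.1 Ctrl, 11.3 Oxali, 13.8 Cispl, 9.62 IFNγ, 12.9 Oxali + IFNγ) stands for its depth, since read totals are not known here. Listed −log10 p-values start at 2.00, and at 2.99 for Cispl.

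Strong intervals of the 5 lists were merged where they overlapped by 1 bp. Groups came from the labels, which do not say whether the 2 libraries came from separate cultures. A fixed rule named the 9 genes, their start-site regions, the 3 highest and 3 lowest ratios, regions gained in all 3 platinum lists, and up to 3 pathway genes in each direction. The members and lists were chosen with earlier results of these data known. Some cell type markers are not reported here. Other windows, scalings and thresholds were tried as alternatives. Python 3.11.15 with numpy 2.4.6, pandas 2.3.3 and scipy 1.17.1 was used.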

Additional observations from a re-analysis of the deposited data

How the results depend on the processing

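No paired analysis was possible because the libraries of a group were pooled before peaks were called, and for the same reason no library could be left out in turn. Counts depended on the window. With gene bodies only, strong regions numbered 46 in Ctrl, 61 in Cispl and 45 in IFNγ, and gained regions 17 with Cispl and 4 with IFNγ. With 50 kb on each side, strong regions numbered 137 for Ctrl, 136 for IFNγ, 175 for Oxali, 193 for Cispl and 198 for Oxali + IFNγ, gained regions 48, 61, 17 and 69 and lost regions 10, 7, 16 and 10 with Oxali, Cispl, IFNγ and Oxali + IFNγ. With the 100000 best intervals of each list, gained regions numbered 10 after Oxali, 8 after Cispl and 10 after Oxali + IFNγ, and lost regions 9, 8 and 13. At a q-value of at most 1e-05, 2 were gained and 3 lost with IFNγ, and 2 lost with Oxali + IFNγ. At a fold of 2, none were lower with Oxali, Cispl or IFNγ (0 each) and 2 with Oxali + IFNγ, and 3 were higher with Cispl and 1 with IFNγ.

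Scaling by the median of regions strong in every list subtracted 0.14, 0.06, -0.25 and 0.13 from every log2 ratio (Oxali, Cispl, IFNγ, Oxali + IFNγ), and scaling by start-site regions subtracted -0.32, -0.49, -0.47 and -0.63. Member medians then were -0.27, -0.21, 0.0041 and -0.28 for the former and 0.20, 0.34, 0.22 and 0.48 for the latter, so that their direction is not settled by these data, and 16 regions were lower with Oxali, and 7 higher and 3 lower with IFNγ, under the former. Under the latter, 17, 23, 12 and 25 regions were higher and 0 lower. Other medians moved without a change of sign except 0.0236 with Oxali at 50 kb. They were -0.0721 with Cispl and -0.0697 with Oxali + IFNγ at 50 kb, -0.0490, -0.0732 and -0.0790 with gene bodies only (Oxali, Cispl, Oxali + IFNγ), -0.0316 and -0.0656 by the mean over summits (Oxali, Cispl), and -0.13, -0.18 and -0.0715 by the fold over the local background (Cispl, IFNγ, Oxali + IFNγ).

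Alternatives chosen after seeing the data concerned Slc7a11 and peak shoulders. With its RefSeq extent, 11 regions were gained with Oxali and 18 with Oxali + IFNγ, and medians were -0.21, -0.19 and -0.21 with Oxali, Cispl and Oxali + IFNγ. Without Slc7a11, strong regions numbered 62 in Oxali and 65 in Oxali + IFNγ, gained regions 8, 17 and 13 with Oxali, Cispl and Oxali + IFNγ, higher regions 3, 3 and 2, and medians were -0.22, -0.22, -0.29 and -0.30 in the order above. Without regions within 1 kb of an interval of the other list, 4 were gained with IFNγ, and 1, 0 and 2 were lost with Oxali, Cispl and Oxali + IFNγ. Of 179 alternative values, 103 stayed within the error or 1.5 times, 70 moved and 6 changed sign. The cause of these changes was not tested.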
